A study of Homo sapiens with 4 samples.

Results

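The exon junction complex core is encoded by 5 genes, EIF4A3, MAGOH, MAGOHB, RBM8A and CASC3, and these were followed across 4 RNA sequencing libraries of human bladder cancer cells. They were taken by their gene symbols from a table of 56303 genes, in which all 5 were present. Each line, T24T and EJ, contributed 1 library from cells that received hsa_circ_0008399, a circular RNA, by transfection (circ) and 1 from cells that received the vector (vector). The groups were therefore T24T circ, T24T vector, EJ circ and EJ vector, with 1 library in each and with total RNA as the starting material. T24T is a derivative of the T24 bladder cancer line. Lines called EJ are listed in cell line registers as related to T24, so the lines may not be independent backgrounds, and the relation of these cells was not tested. The design sought genes that act downstream of hsa_circ_0008399, and the labels do not say how long after transfection the cells were collected or whether a library came from pooled cultures.

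The exon junction complex is laid down on spliced mRNA by the spliceosome, a short distance upstream of each exon-exon junction. EIF4A3 is a DEAD-box ATPase that clamps the RNA, the heterodimer of MAGOH or MAGOHB with RBM8A (also called Y14) locks that clamp shut, and CASC3 (also called MLN51 or Barentsz) joins it and stimulates the helicase. The complex marks the mRNA for export, translation and nonsense-mediated decay (NMD), the pathway that destroys transcripts whose reading frame stops upstream of a complex that no ribosome has removed.

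All coordinates are in the hg38 build, and those of all 5 genes were the same in the deposited table and in GENCODE release 29. EIF4A3 lies on chromosome 17 (80135214 to 80147183, minus strand), with 4967 exonic bases. MAGOH lies on chromosome 1 (53226892 to 53238610, minus strand), with 1463 exonic bases. MAGOHB lies on chromosome 12 (10604190 to 10613623, minus strand), with 4856 exonic bases. RBM8A lies on chromosome 1 (145917714 to 145927678, minus strand), with 5585 exonic bases. CASC3 lies on chromosome 17 (40140318 to 40172183, plus strand), with 6380 exonic bases. These values are the union of all annotated exons, so 3' untranslated sequence makes up much of the length of some genes. In the longest coding transcript of MAGOHB, 2085 of 2623 bases lay 3' of the coding sequence, against 153 of 756 bases in that of MAGOH.

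MAGOHB and MAGOH are paralogs that fill the same place in the complex, and their coding sequences are shown because the counts of the pair depend on telling them apart. The coding sequence had 447 bases in MAGOHB and 441 in MAGOH, of which 381 of 441 aligned bases (86.4%) were identical. Substitutions numbered 60, another 6 bases had no partner, and the longest identical run was 38 bases. Most substitutions were silent, since 144 of 146 aligned codons encoded the same amino acid. The first 150 coding bases of each GENCODE release 29 transcript are given 5' to 3', and capitals mark bases that differ from the paralog or have no partner in it.
MAGOHB: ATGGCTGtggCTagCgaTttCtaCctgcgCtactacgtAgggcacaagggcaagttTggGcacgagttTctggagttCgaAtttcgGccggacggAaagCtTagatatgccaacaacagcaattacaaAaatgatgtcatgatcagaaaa
MAGOH: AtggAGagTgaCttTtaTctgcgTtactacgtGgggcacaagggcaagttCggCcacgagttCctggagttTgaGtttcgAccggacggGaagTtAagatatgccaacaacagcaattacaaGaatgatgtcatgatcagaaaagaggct
In these stretches 25 bases of MAGOHB and 19 bases of MAGOH were in capitals, spread over most of the window. The alignment left the first 6 bases of MAGOHB without a partner, so the start codons of the paralogs were not set against each other. Capitals at that end, and the count of codons with the same amino acid, depend on this placement.

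The transcript starts of the pair shared a second sequence feature. The first 100 bases of the longest coding transcript of both paralogs held TGACGTCA, the palindrome known as the cyclic AMP response element, and the windows below carry it in capitals. The motif reads the same on both strands, was chosen after the sequences had been seen, and occurred in the first 100 bases of 64 of 19668 genes with a coding transcript (0.325%). The first window is chr12:10613580-10613609 and the second chr1:53238532-53238561, both on the minus strand.
MAGOHB: attccgcgcgaTGACGTCActgcaaggcgc
MAGOH: acgacgggaccTGACGTCActtccgcgcgc
The first base of the motif was base 26 of the MAGOHB transcript and base 61 of the MAGOH transcript. The first 100 bases of EIF4A3, RBM8A and CASC3 did not hold these letters. In the RefSeq windows of the GRCh38.p14 build, from 250 bases before to 50 after a gene's start, the motif occurred in 649 of 35116 genes (1.85%), MAGOH among them, and CASC3 had no entry. The RefSeq window of MAGOHB starts from a site 645 bases downstream of the GENCODE start. It does not reach the stretch shown above, and it did not hold the motif. The match describes the letters only, and no binding was measured here.

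The libraries held 18057768 counts in T24T circ, 16864247 in T24T vector, 14703455 in EJ circ and 15639289 in EJ vector cells, and between 23799 and 25044 genes had at least 1 read. RBM3, the gene from which the circular RNA derives, had 13240 counts in T24T circ and 16010 in EJ circ cells, against 4641 in T24T vector and 4361 in EJ vector cells. These counts per gene do not separate linear from circular transcripts. All 4 leukocyte markers examined were at 0 in every library. Of the luminal markers, only the keratins KRT7, KRT8 and KRT18 had high counts. The other luminal markers had at most 70 counts in any library, with GATA3 between 0 and 1 and UPK3A at 0. Of the basal markers CD44 was high and KRT5 was at 0. Of the mesenchymal markers, VIM was high in every library, with between 9479 and 12309 counts, and ZEB1 had between 435 and 875. FN1 had 12465 counts in T24T circ and 22587 in T24T vector cells, against 1882 in EJ circ and 2887 in EJ vector cells. CDH2 had 142 counts in T24T circ and 169 in T24T vector cells, but 1501 in EJ circ and 1728 in EJ vector cells. The markers do not place the cells in a luminal or basal class. The mitochondrial share of counts was 3.08% in T24T circ and 4.01% in EJ circ cells, against 5.05% in T24T vector and 5.40% in EJ vector cells. With all mitochondrial genes left out, the number of core genes called below was the same.

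Circ and vector cells were compared over both lines to ask which core genes differed with the circular RNA. Of the 5 genes, 4 were higher in circ cells (MAGOHB, CASC3, EIF4A3 and MAGOH) and 0 were lower, at an adjusted p under 0.05. Over all 17689 genes tested, 12.7% were called, 7.13% as higher and 5.56% as lower. The increase of MAGOHB was 1.61-fold, and that of each of the other 3 was 1.22-fold. RBM8A had a fold of 1.18 and did not pass the test. The median log2 ratio of the 5 genes was 0.29, beside a median of 0.00 over all genes tested.

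EIF4A3, the ATPase of the core, had 1729 counts in EJ circ and 1752 in T24T circ cells, against 1482 in EJ vector and 1396 in T24T vector cells. After scaling for library size and composition by TMM this was 115 and 100 CPM, counts relative to a fixed library total, in EJ circ and T24T circ cells, against 92.5 in EJ vector and 84.0 in T24T vector cells. Both circ libraries lay above both vector libraries. The ratio across lines was 0.29 ± 0.08 (log2, SE of the edgeR quasi-likelihood fit, adjusted p = 0.0213).

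MAGOHB, 1 of the 2 alternative partners of RBM8A, showed the largest difference of the 5 genes. It had 2075 counts in EJ circ and 2068 in T24T circ cells, against 1499 in EJ vector and 1125 in T24T vector cells. The scaled values were 139 and 118 CPM in EJ circ and T24T circ cells, against 93.6 in EJ vector and 67.7 in T24T vector cells. The groups did not overlap, and the T24T vector library was the lowest of the 4. The ratio was 0.68 ± 0.09 (log2, edgeR SE, adjusted p = 1.57e-06), which placed MAGOHB at rank 64 by p among 17689 genes and at percentile 95.5 of all log2 ratios.

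MAGOH, the other partner, had 969 counts in EJ circ and 1199 in T24T circ cells, against 802 in EJ vector and 987 in T24T vector cells. Scaled values were 64.7 and 68.5 CPM in EJ circ and T24T circ cells, against 50.1 in EJ vector and 59.4 in T24T vector cells. Both circ libraries were again the higher ones. The log2 ratio was 0.29 ± 0.09 (edgeR, adjusted p = 0.0339).

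RBM8A, the RNA-binding protein gene of the heterodimer, had 4388 counts in EJ circ and 4576 in T24T circ cells, against 3805 in EJ vector and 3836 in T24T vector cells. Scaled values were 293 and 261 CPM in EJ circ and T24T circ cells, against 238 in EJ vector and 231 in T24T vector cells. The 2 kinds of library did not overlap here either, but the log2 ratio of 0.24 ± 0.08 had an edgeR adjusted p of 0.0510 and so missed the threshold by a narrow margin.

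CASC3, the gene of the most peripheral of the core proteins, had 5429 counts in EJ circ and 5880 in T24T circ cells, against 5085 in EJ vector and 4274 in T24T vector cells. Scaled values were 363 and 336 CPM in EJ circ and T24T circ cells, against 317 in EJ vector and 257 in T24T vector cells. The circ libraries were above the vector libraries, with the narrowest gap between T24T circ and EJ vector cells. The log2 ratio was 0.29 ± 0.08 (edgeR, adjusted p = 0.0187).

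All 5 genes thus had both circ libraries above both vector libraries, as did 15.2% of all genes tested. With 1 library per group, the edgeR p-values rest on a spread taken mostly from all genes together over these 4 libraries. That spread holds no replicate of any group and may be technical. In bulk RNA a change in the share of cells expressing a gene and a change in RNA per cell cannot be told apart. DESeq2 called 1 of the 5 genes, MAGOHB (adjusted p = 0.000160), beside 1.02% of all genes called higher by it. Without the cell-line block edgeR called 0 of 5 (1 at an unadjusted p under 0.05), with an edgeR adjusted p of 0.99999 for each. The share of all genes called without the block was not counted, so that 0 cannot be set against it.

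**Figure D1:**
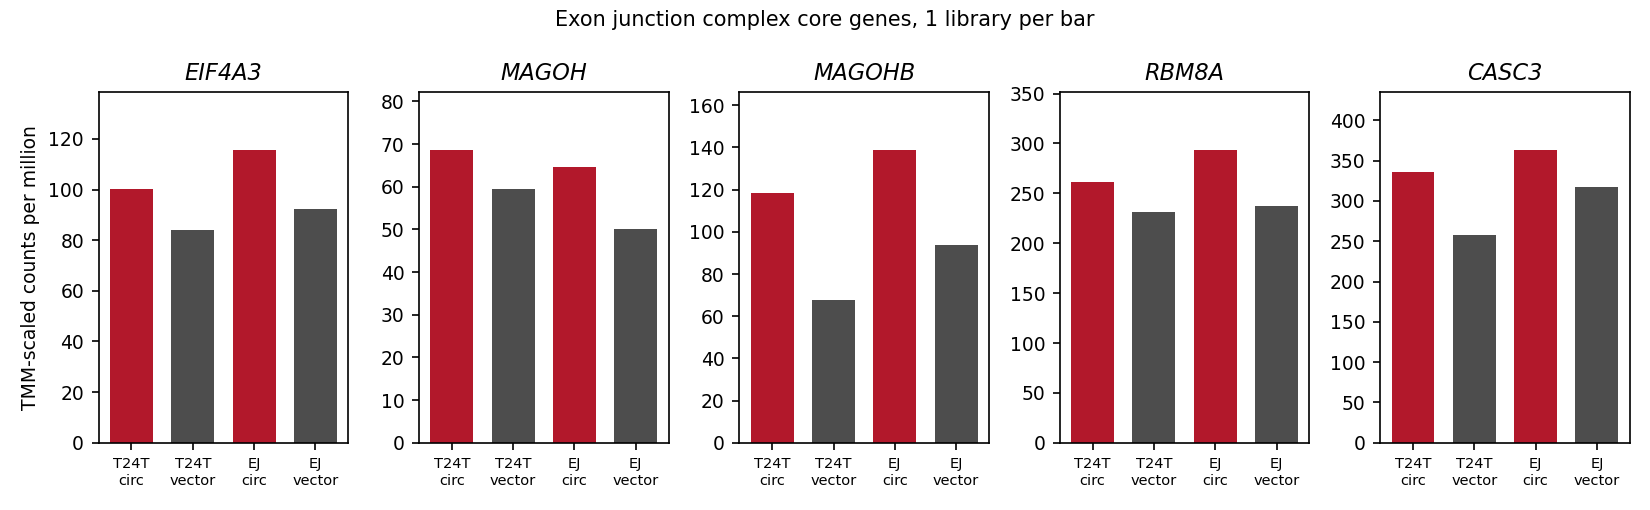
TMM-scaled CPM (vertical axes, from 0, with a scale of its own for each gene) of the 5 core genes, with 1 bar per library, circ in red and vector in grey. In every panel both circ bars stand above both vector bars, and the largest ratio of circ to vector is that of MAGOHB in T24T cells, with 118 in T24T circ and 67.7 in T24T vector cells.

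Within the lines there was no replicate and therefore no test, and each fold carries an exact 95% interval for counting error only. EIF4A3 had a fold of 1.19 (1.11 to 1.28) in T24T and 1.248 (1.16 to 1.34) in EJ cells. MAGOH had a fold of 1.15 (1.06 to 1.26) in T24T and 1.29 (1.18 to 1.42) in EJ cells. RBM8A had a fold of 1.13 (1.08 to 1.18) in T24T and 1.23 (1.18 to 1.29) in EJ cells. For these 3 genes the fold was larger in EJ cells.

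MAGOHB and CASC3 had the larger fold in T24T cells. The fold of MAGOHB was 1.74 (1.62 to 1.88) in T24T and 1.48 (1.38 to 1.58) in EJ cells, and the 2 intervals did not overlap. The fold of CASC3 was 1.31 (1.26 to 1.36) in T24T and 1.14 (1.10 to 1.19) in EJ cells, again with intervals apart. Whether the lines differed in their response could not be tested, because the difference leaves no residual degrees of freedom. All 5 genes were higher in circ cells of both lines, as were 33.4% of all genes tested. A fold of 1.5 was passed by 1 of the 5 in T24T cells (MAGOHB), where 8.72% of all genes passed it upward and 6.9% downward. It was passed by 0 of the 5 in EJ cells, where 8.2% of all genes passed it upward and 7.2% downward.

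**Figure D2:**
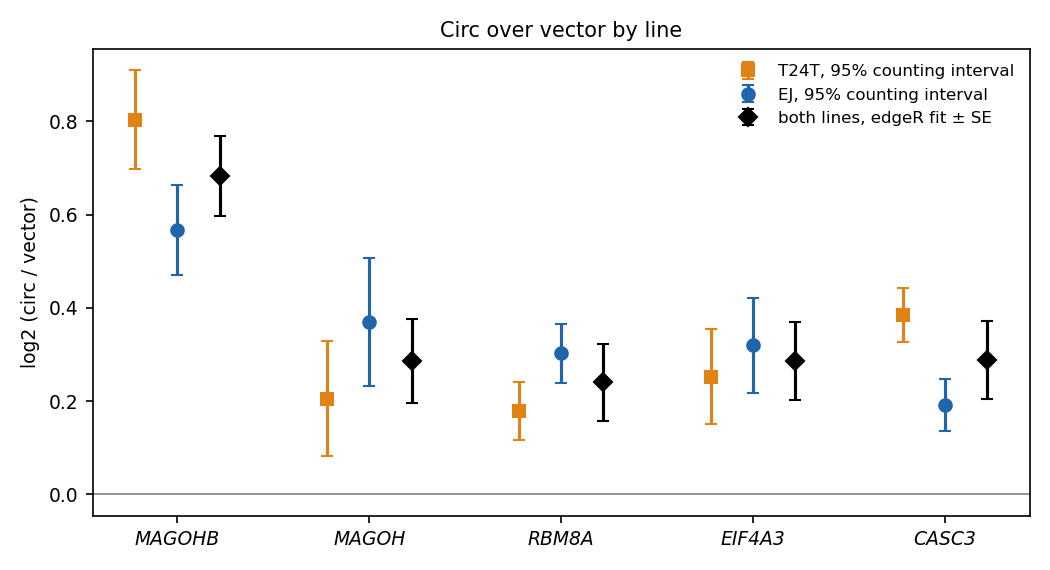
Log2 ratio of circ over vector (vertical axis) for each core gene, in T24T cells (orange squares) and EJ cells (blue circles) with 95% counting intervals, and across lines (black diamonds) with the SE of the edgeR fit. All points lie above 0, and MAGOHB, at 0.80 in T24T and 0.57 in EJ cells, stands above the other 4 genes in both lines.

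The lines were also compared with each other, with transfection as the block. Of the 5 genes, 2 were lower in T24T cells, MAGOHB and CASC3, and 0 were higher, beside 41.4% of all genes called, 19.5% as lower and 21.9% as higher. The difference of MAGOHB was -0.34 ± 0.09 (log2 T24T over EJ, edgeR SE, adjusted p = 0.00157), and it was -0.23 among circ and -0.47 among vector cells. The difference of CASC3 was -0.21 ± 0.08 (edgeR, adjusted p = 0.0456), with -0.11 among circ and -0.30 among vector cells.

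EIF4A3 (-0.17 ± 0.08, adjusted p = 0.1004) and RBM8A (-0.10 ± 0.08, adjusted p = 0.337) had negative log2 differences and MAGOH a positive one (0.16 ± 0.09, adjusted p = 0.155), and none of these 3 passed the edgeR test. Both circ libraries lay above both vector libraries for each core gene, so the T24T circ library lay above the EJ vector library. No core gene could therefore have both T24T libraries below both EJ libraries, and this says nothing more about the lines. The MAGOHB difference was -0.15 (adjusted p = 0.160) once trends on transcript GC content and gene length were removed. DESeq2 and the fit without the transfection block called 0 of the 5 (1 and 0 at an unadjusted p under 0.05). Their log2 differences were -0.36 and -0.32 for MAGOHB and -0.22 and -0.20 for CASC3. The share of all genes that these fits called between the lines was not counted, so that 0 cannot be set against it.

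Levels of different genes were compared per length, as the deposited RPKM. CASC3 had 57.9 RPKM in EJ circ and 51.0 in T24T circ cells, against 51.0 in EJ vector and 39.7 in T24T vector cells. RBM8A had 53.4 RPKM in EJ circ and 45.4 in T24T circ cells, against 43.6 in EJ vector and 40.7 in T24T vector cells. MAGOH had 45.0 RPKM in EJ circ and 45.4 in T24T circ cells, against 35.1 in EJ vector and 40.0 in T24T vector cells. These 3 genes were the upper ones of the 5 in all 4 libraries.

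MAGOHB and EIF4A3 were the lower ones. MAGOHB had 29.1 RPKM in EJ circ and 23.6 in T24T circ cells, against 19.7 in EJ vector and 13.7 in T24T vector cells. EIF4A3 had 23.7 RPKM in EJ circ and 19.5 in T24T circ cells, against 19.1 in EJ vector and 16.7 in T24T vector cells. The order in both EJ libraries was CASC3, RBM8A, MAGOH, MAGOHB and EIF4A3.

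In T24T cells the neighbours in that order were hard to part. MAGOH and RBM8A both read 45.4 RPKM in T24T circ cells, and in T24T vector cells RBM8A, MAGOH and CASC3 lay between 39.7 and 40.7 RPKM. There MAGOHB ranked below EIF4A3, the reverse of the other 3 libraries. Over the 4 libraries the scaled level of MAGOHB varied most, with a coefficient of variation of 29.3%, and that of RBM8A least, with 10.99%.

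The order depended on the length used. With the length of the longest coding transcript in place of the union of exons, EIF4A3 ranked above RBM8A and MAGOHB in every library (67.8, 60.2 and 53.8 RPKM in EJ circ cells), and MAGOHB came last in all 4. Order between genes is therefore a property of the length model as well as of the counts, whereas ratios of 1 gene between libraries do not depend on it.

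The balance within the MAGOH pair differed between the libraries. Per length, MAGOHB made up 39.2% of the summed RPKM of the pair in EJ circ and 34.2% in T24T circ cells, against 36.0% in EJ vector and 25.6% in T24T vector cells. In raw counts its share was 68.2% (exact 95% interval 66.5 to 69.8) in EJ circ and 63.3% (61.6 to 65.0) in T24T circ cells, against 65.1% (63.2 to 67.1) in EJ vector and 53.3% (51.1 to 55.4) in T24T vector cells. T24T vector cells stood apart with the lowest share on both scales, and the EJ vector share exceeded the T24T circ share, so circ and vector groups overlapped. Summed over the pair, RPKM were 74.1 in EJ circ and 69.0 in T24T circ cells, against 54.8 in EJ vector and 53.7 in T24T vector cells. The groups were apart for this sum, which follows from their being apart for each gene of the pair.

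EIF4A3 belongs to the helicase family of EIF4A1 and EIF4A2, which unwind mRNA for translation initiation and are not part of the junction complex. EIF4A1 had 9654 counts in EJ circ and 14168 in T24T circ cells, against 9726 in EJ vector and 14749 in T24T vector cells, with a log2 ratio of -0.02 ± 0.08 for circ over vector (edgeR adjusted p = 0.895). EIF4A2 had 3133 counts in EJ circ and 6042 in T24T circ cells, against 3424 in EJ vector and 6058 in T24T vector cells, with a log2 ratio of -0.06 ± 0.08 (adjusted p = 0.732). Neither passed the test for circ over vector, and both were higher in T24T than in EJ cells (log2 0.44, adjusted p = 4.79e-05, and log2 0.75, adjusted p = 5.20e-09, by edgeR). EIF4A3 made up 13.0% of the summed RPKM of the 3 helicase genes in EJ circ and 8.81% in T24T circ cells, against 11.1% in EJ vector and 6.95% in T24T vector cells. The share was higher in circ cells within each line and higher in both EJ libraries than in both T24T libraries.

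**Figure D3:**
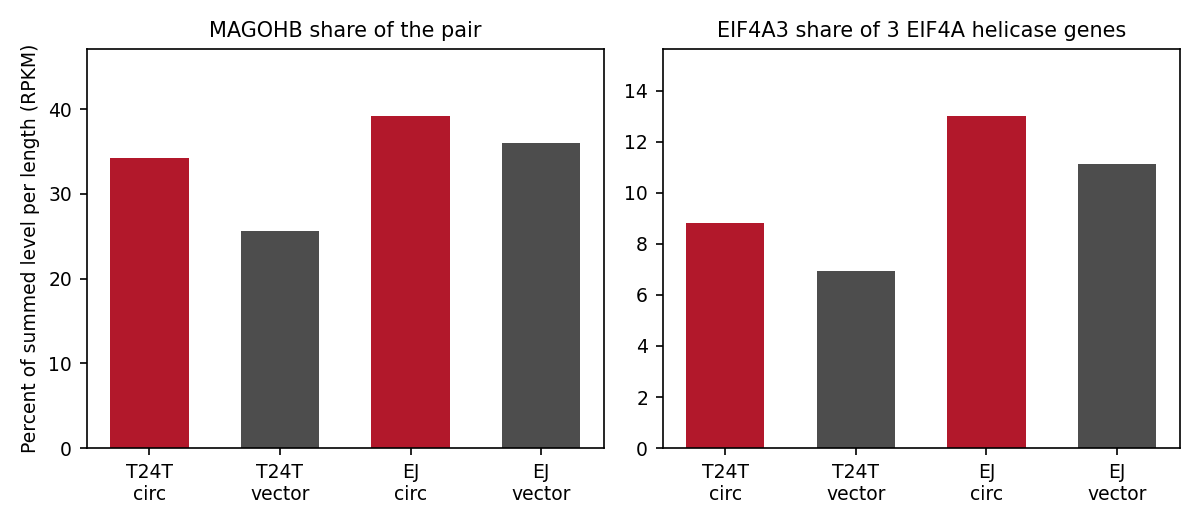
Share of the summed level per length (RPKM, percent, vertical axes from 0) taken by MAGOHB within the MAGOH pair (left) and by EIF4A3 among EIF4A1, EIF4A2 and EIF4A3 (right), with 1 bar per library, circ in red and vector in grey. MAGOHB takes 34.2% in T24T circ and 25.6% in T24T vector cells, and EIF4A3 takes 13.0% in EJ circ and 11.1% in EJ vector cells.

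Overlapping genes and copies bear on the counts of RBM8A. On the opposite strand, GNRHR2 (chromosome 1, 145919013 to 145925341) shares 858 of the 5585 exonic bases of RBM8A (15.4%), RP11-315I20.1 shares 541 (9.69%) and CH17-270A2.2 shares 257 (4.60%). GNRHR2 had 416 counts in EJ circ and 331 in T24T circ cells, against 319 in EJ vector and 216 in T24T vector cells, and rose with circ (log2 0.51 ± 0.12, edgeR adjusted p = 0.00395).

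CH17-270A2.2 rose too (0.33 ± 0.08, edgeR adjusted p = 0.00727), and RP11-315I20.1 (0.24 ± 0.08, adjusted p = 0.0608) did not pass the test. Whether counting used strand is not given in the sources used here. Reads in the exonic bases that RBM8A shares with its antisense partners therefore cannot be told apart. MAGOH shares 1 exonic base with the antisense RP5-1024G6.5, and no overlapping gene was found for EIF4A3, MAGOHB or CASC3.

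RBM8B, an intronless copy of RBM8A on chromosome 14 (60397757 to 60398281, plus strand), has 525 bases, of which 518 (98.7%) are identical to the RBM8A coding sequence. It had 385 counts in EJ circ and 382 in T24T circ cells, against 305 in EJ vector and 258 in T24T vector cells, and rose with circ (log2 0.46 ± 0.12, edgeR adjusted p = 0.00761). The counting of RBM8A and RBM8B reads is uncertain at this identity. DESeq2 called none of RBM8B, GNRHR2 and CH17-270A2.2 (adjusted p = 0.291, 0.222 and 0.125). RBM8B held 8.07% of the counts of both in EJ circ and 7.70% in T24T circ cells, against 7.42% in EJ vector and 6.30% in T24T vector cells. The MAGOH copies MAGOH3P and MAGOH2P had between 0 and 2 counts in each library, and EIF4A3P1 had 0 in all 4.

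The proteins that bind or place the core, and the decay machinery that reads it, were examined next as lists of other genes of the pathway. Of 17 peripheral and assembly factors, 5 rose in circ cells and 0 fell, with a median log2 ratio of 0.13. Of 12 NMD factors, 6 rose and 0 fell, with a median of 0.20. Over all genes tested, 7.13% rose and 5.56% fell. Together these lists gave 11 genes called by edgeR. DESeq2 called 4 of their members, PNN, UPF2, UPF3B and SMG5, all higher in circ cells, beside 1.02% of all genes called higher by it. For IPO13 it gave no adjusted p.

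Among the peripheral factors the largest ratio was that of PNN, which encodes pinin, a partner of the complex in splicing. PNN had 11181 counts in T24T circ and 13797 in EJ circ cells, against 6459 in T24T vector and 9622 in EJ vector cells (log2 0.67 ± 0.08, edgeR adjusted p = 6.56e-07). CWC22, which brings EIF4A3 to the spliceosome, rose by 0.38 ± 0.09 on the log2 scale (adjusted p = 0.00296), and its cyclophilin partner CWC27 by 0.30 ± 0.09 (adjusted p = 0.0185). ACIN1, a splicing regulator that binds the assembled core, rose by 0.32 ± 0.08 (adjusted p = 0.00695).

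The last of the 5 was PYM1, named after its values were seen, whose protein takes the complex off mRNA in the cytoplasm (0.28 ± 0.09, edgeR adjusted p = 0.0429). The genes with negative ratios were IPO13, the importin that returns the MAGOH and RBM8A heterodimer to the nucleus (log2 -0.10), and ICE1, a factor of exon junction dependent decay (log2 -0.05). Neither passed the test.

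Among the NMD factors, UPF3B, the link between the junction complex and the UPF proteins, had a log2 ratio of 0.69 ± 0.08 (edgeR adjusted p = 7.44e-07). UPF2, which joins UPF3B to the helicase UPF1, had 0.69 ± 0.09 (adjusted p = 2.10e-06). SMG5, which recruits decay enzymes to phosphorylated UPF1, had 0.52 ± 0.09 (adjusted p = 0.000117), and SMG1, the kinase of UPF1, had 0.43 ± 0.09 (adjusted p = 0.000781). UPF1 itself, named after its values were seen, had 0.03 (adjusted p = 0.863) and did not pass the test. By line, 7 of the 12 NMD factors were lower in T24T than in EJ cells and 0 were higher, and of the 17 peripheral factors 7 were lower and 3 higher. Over all genes tested, 19.5% were lower and 21.9% higher in T24T cells.

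**Figure D4:**
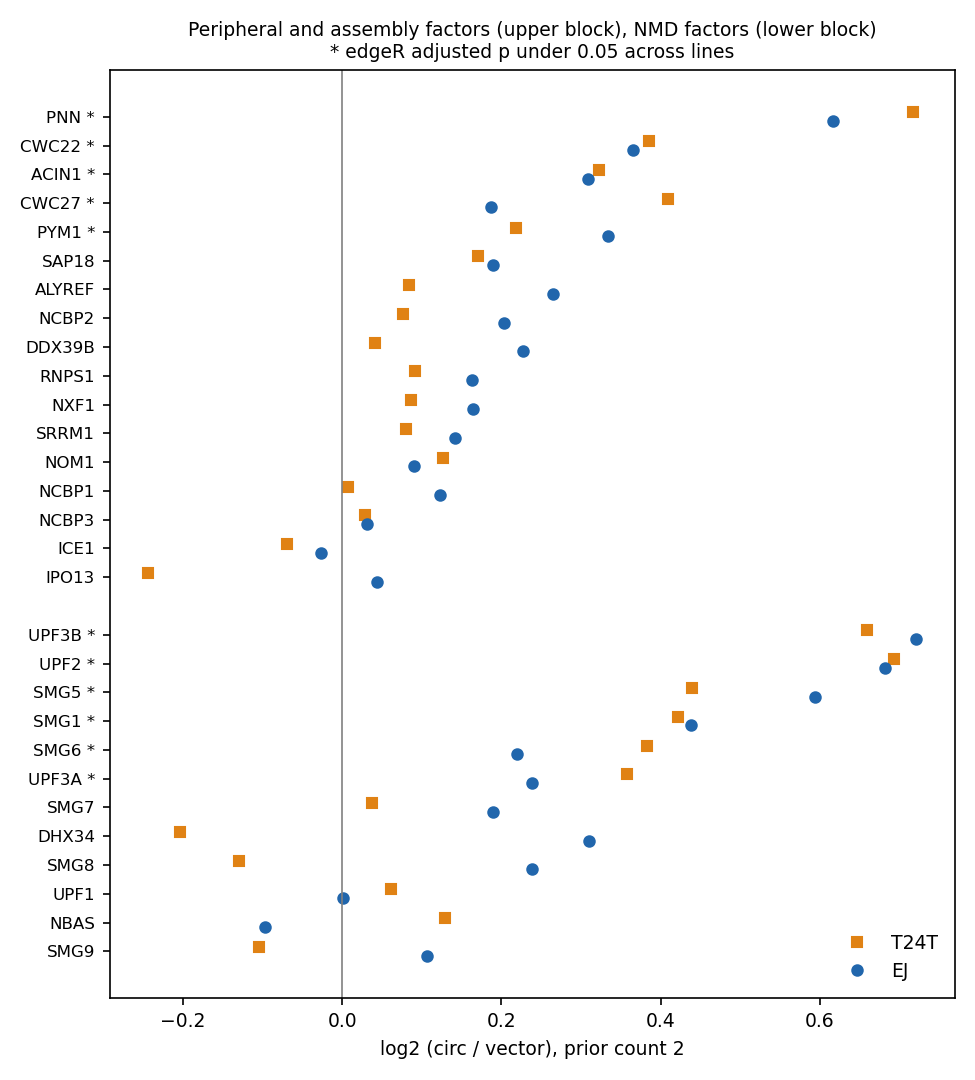
Log2 ratio of circ over vector (horizontal axis, prior count 2) in T24T cells (orange squares) and EJ cells (blue circles) for 17 peripheral and assembly factors (upper block) and 12 NMD factors (lower block), with a star for an edgeR adjusted p under 0.05 across lines. The starred genes lie right of 0 in both lines, with PNN (0.67 across lines) leading the upper block and UPF3B and UPF2 (0.69 each) the lower one.

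A further list held 12 transcripts described as targets of NMD. Of these, 7 were higher in circ cells and 0 were lower by edgeR, beside 7.13% and 5.56% of all genes tested, and the median log2 ratio was 0.39. DESeq2 called 3 of the 12, ATF3, DDIT3 and ZFAS1, all as higher, beside 1.02% of all genes called higher by it. For SNHG12 and SNHG15 it gave no adjusted p. The genes called by edgeR included ATF3 (1.98 ± 0.14, edgeR adjusted p = 2.92e-11) and DDIT3 (1.23 ± 0.12, adjusted p = 3.94e-08), which encode transcription factors of the cellular stress response. They also included ZFAS1, a host of small nucleolar RNAs (0.56 ± 0.08, adjusted p = 2.64e-05), and UPP1, a uridine phosphorylase (0.50 ± 0.10, adjusted p = 0.000556). SNHG12, another such host, had a log2 ratio of -0.12 and did not pass the test. Several of these genes are also known to respond to stress at the level of transcription, and RNA counts do not separate synthesis from decay.

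Finally, genes with the most similar pattern were sought by the Euclidean distance of centred log2 CPM over the 4 libraries, among 4381 genes with 500 or more counts in every library. The closest to EIF4A3 were SFSWAP (0.027) and PSMC2 (0.028), and the closest to MAGOH were DDX47 (0.019) and CCDC57 (0.032). RBM8A was closest to MBD1 (0.012) and SLBP (0.021), and CASC3 to TBCE (0.0099) and CWC27 (0.018). MAGOHB had more distant neighbours, SLC2A11 (0.11) and UTP14A (0.12). Among the core genes themselves, EIF4A3 and RBM8A were closest (0.087) and the paralogs MAGOHB and MAGOH farthest apart (0.68), with 4 libraries behind each distance.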

How the data were processed

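Total RNA of 4 libraries was sequenced, 1 for each line and transfection. Per the submitters' processing notes, Trimmomatic and HISAT2 were used with hg38, in versions not stated there. The counting tool, annotation, use of strand and pooling are not given in the sources used here. The deposited table of read counts holds 56303 genes. The authors' RPKM table holds 29817 genes, and its RPKM equalled the deposited count per gene length and library total in 100% of values (relative tolerance 1e-06). Columns were matched to samples by description, where T24T is written T24, and 0 sample columns were left out.

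The filter asked for 20 counts in total and 10 in some library; 17689 genes passed, all 5 core genes among them, and were scaled by TMM. The fit was the edgeR 4.0.16 quasi-likelihood test in R 4.3.3 with line and transfection as terms and Benjamini-Hochberg adjustment at 0.05. With 1 residual degree of freedom, each gene's spread came mostly from all genes together (prior degrees of freedom 30.5, common coefficient of biological variation 0.0704). Ratios within a line used a prior count of 2, and intervals are exact binomial (Clopper-Pearson). PCR copies are not independent molecules, so intervals cover counting error only. Labels carry no replicate numbers, and the block is the cell line.

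Alternatives were RLE factors, library size alone, no filter, a filter of 50 counts, no block, mitochondrial genes left out, thinning, a length trend removed, DESeq2 1.42.0, limma 3.58.1 (voom, and log2 RPKM with pseudocounts of 1 and 0.1), other prior counts, each line alone and other fold thresholds. GC and length trends removed together, and the longest transcript's length, were added after seeing the data. Members and lists were chosen with earlier results of these data known. Core genes are always named, and of each list up to 4 genes per direction with the smallest adjusted p; other names are marked. 1 item that the rule would name is not reported here. Sequences are from GENCODE release 29 transcripts.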

Additional observations from a re-analysis of the deposited data

Results flagged for a closer look

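Some genes of the pathway moved in opposite directions with circ in the lines, and whether the lines differed was not tested. EIF4A1 had a log2 ratio of circ over vector of -0.13 in T24T and 0.086 in EJ cells. IPO13 had -0.24 in T24T and 0.044 in EJ cells. Of the transcripts described as NMD targets, SNHG12 had -0.45 in T24T and 0.23 in EJ cells, SNHG15 had -0.51 in T24T and 0.60 in EJ cells, and SNHG1 had -0.20 in T24T and 0.28 in EJ cells. ATF4 went the other way, with 0.34 in T24T and -0.31 in EJ cells. Of the NMD factors, DHX34 had -0.20 in T24T and 0.31 in EJ cells, and SMG8 had -0.13 in T24T and 0.24 in EJ cells. SMG9 had -0.10 in T24T and 0.11 in EJ cells, and NBAS had 0.13 in T24T and -0.10 in EJ cells. No core gene did so: all 5 were higher with circ in both lines. With 1 library per group, no value could be checked for a library far from its group.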

How the results depend on the processing

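Of 4 core genes called for circ over vector, 8 of 13 alternatives called 3 to 5. The count was 2 with GC and length trends removed, 1 with DESeq2, and 0 without the replicate block (1 at an unadjusted p under 0.05) and 0 with limma on log2(RPKM + 1) or log2(RPKM + 0.1) (5 at an unadjusted p under 0.05 in each). The log2 ratios moved little in the settings that ended a call: for EIF4A3 0.29 without the block, 0.28 with DESeq2 and 0.26 and 0.27 with limma on RPKM; for MAGOH 0.28, 0.28, 0.27 and 0.27 there, 0.27 without a filter and 0.25 with GC and length trends removed; for CASC3 0.28, 0.28, 0.27 and 0.27, and 0.26 with GC and length; for MAGOHB 0.67 without the block and 0.64 and 0.67 with limma. RBM8A passed with limma-voom (0.24, adjusted p = 0.0298). For T24T against EJ (2 called), 1 was called with the filter of 50 counts, with the length trend removed, with GC and length and with either limma fit on RPKM, and 0 with DESeq2 or without the block. For peripheral and NMD factors (11 called), 9 alternatives gave 10 or 11, DESeq2 4, and the fit without the block and both limma fits on RPKM 0 (1, 11 and 11 at an unadjusted p under 0.05). At a fold threshold of 25% above 1, 2 core genes passed in T24T and 2 in EJ cells, and at 2-fold 0 passed in T24T cells. The shares of all genes past these other thresholds were not counted, so whether these numbers are unusual cannot be read from them. On raw counts the MAGOHB share was 68.2% in EJ circ and 63.3% in T24T circ cells, against 65.1% in EJ vector and 53.3% in T24T vector cells. In each line alone, ratios of circ over vector lay at 0.25 to 0.32 for EIF4A3, 0.21 to 0.37 for MAGOH, 0.57 to 0.80 for MAGOHB, 0.18 to 0.30 for RBM8A and 0.19 to 0.38 for CASC3, with no test, since 1 line leaves no residual degrees of freedom. No ratio between groups changed its sign, whereas the order of the core genes by level changed with the length used and MAGOHB held the majority of the pair on raw counts but not per length. The cause of the lost calls was not tested. Among these alternatives, the share of all genes called was counted only for DESeq2, and there only for genes higher in circ cells. A GC trend read from the genome was not run; transcript GC covered 80.9% of tested genes. The libraries of a line belonged together: the T24T minus EJ differences of circ and of vector cells correlated at 0.858 over 17689 genes, which are not independent replicates. The circ minus vector differences of T24T and of EJ cells correlated at 0.363 over these genes.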
